A study of Rattus norvegicus with 5 samples.

Results

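The comparison described here is that of Mbd5 knockdown with the GFP control in rat primary cortical neurons, and its members are the 15619 genes that the deposited table of this comparison lists, out of 16081 genes in any of the 4 tables of the study. They were taken by their Ensembl identifiers, and the 4 rows of the table that hold reads not assigned to a gene were left out. The neurons came from rat embryos at embryonic day 18, were grown for 21 days in vitro, and were either controls, called GFP (green fluorescent protein) in the tables, or carried a short hairpin RNA (shRNA) against Mbd5. An shRNA lowers a transcript by RNA interference. Both groups are otherwise described alike, and the labels give neither the sequence of the hairpin, its vector, the strain or sex of the animals, nor the number of cultures. The labels list 1 sample for each group, and the number of libraries behind the deposited standard errors is not given in the sources used here. Nothing states that libraries came from separate cultures, so the deposited p-values may measure a technical spread. The other tables compare knockdowns of Ehmt1, Smarcb1 and Mll3 with the same control, and the study groups all 4 targeted genes under Kleefstra syndrome, in which intellectual disability occurs with autistic features.

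Mbd5 belongs to a family of nuclear proteins named for a domain that in some of its members binds methylated CpG sites. The MBD5 protein itself is known as a component of chromatin that associates with a complex removing ubiquitin from a histone. Loss of one copy of the human gene causes a neurodevelopmental disorder with intellectual disability, seizures, sleep disturbance and autistic behaviour. The gene is expressed in cortical neurons, and the question addressed by the comparison is which transcripts change in such neurons when it is lowered.

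The files identify genes by Ensembl identifier alone, and 0 of the 15619 identifiers could be matched to a symbol with the reference used here. The transcript of Mbd5 itself, which would check the knockdown, was therefore not read, and neither were markers of neurons, glia or other cell types. No gene group could be described by its function, and the genes below are described by their identifiers, their levels and their changes. In RNA from a whole culture, fewer cells of a type and less RNA per cell cannot be told apart.

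The table lists a mean normalized count for each gene, which is the mean over the libraries of counts divided by a size factor for each library. These means summed to 12264209 per library over all genes. They ran from 2.12 to 2857917, and 1 gene alone took 23.3% of the sum. That gene had a log2 ratio of 0.26 (SE 0.17) and an adjusted p of 0.512 in the authors' deposited table. Changes are expressed throughout as the log2 ratio of knockdown to control, so that -1 is a halving. The deposited table does not state its direction, and the sign was read from the control levels that the 4 tables imply for the same genes. Over 6648 genes whose means reached 200 in every table, the control level implied by the Mbd5 table departed from the mean of the others by an SD of 0.043 on the log2 scale with positive read as higher in the control, and by an SD of 0.348 with the opposite sign. Every direction below rests on that reading. The same procedure read positive as higher in the control for Smarcb1 and Mll3 but as higher in the knockdown for Ehmt1, so the deposited sign of the Ehmt1 table alone is kept as it stands. For Ehmt1 the implied control level departed from the other tables by an SD of 0.044 under this reading and by 0.316 under the opposite one, which would reverse every Ehmt1 value below.

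Most changed transcripts were lower in the Mbd5 knockdown. At an adjusted p under 0.05 in the authors' deposited table, 449 genes were changed, 3.57% of the 12590 genes that carry an adjusted p. Of these, 337 genes fell, 2.68% of the tested genes, and 112 genes rose, 0.890% of them. The 5 genes just inside the threshold had an adjusted p from 0.0488 to 0.0499 in the authors' deposited table, and the 5 just outside it had values from 0.0505 to 0.0525. Without any adjustment, 1912 tested genes, or 15.2%, had a p-value under 0.05 according to the authors' deposited table. The deposited table gives no adjusted p for the other 3029 genes, which are those of the lowest means, and 36 of them (1.19%) had an unadjusted p under 0.05.

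Reads that were not assigned to a gene were compared in the same table, and none of their rows passed the adjusted threshold. The row of unmapped reads had a log2 ratio of 0.43 (SE 0.20) in the authors' deposited table, with an unadjusted p of 0.0327 and an adjusted p of 0.267. If control and knockdown contribute equally to the means, unmapped reads made up 22.2% of the normalized total in the control and 27.6% in the knockdown. Their part in the changes of genes was not tested.

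The deposited changes were moderate in size. Whether a prior on fold changes drew the deposited values toward 0 is not stated. Among the 337 genes that fell, the log2 ratio in the authors' deposited table ran from -2.26 to -0.49, with a median of -0.87 and quartiles of -1.03 and -0.74. The median gene of this group thus kept 54.5% of its control level, and the gene with the largest fall kept 20.8%. Among the 112 genes that rose, the log2 ratio in the authors' deposited table ran from 0.55 to 1.77, with a median of 0.80 and quartiles of 0.68 and 0.94, so that the median gene rose 1.75-fold and the most changed gene 3.41-fold. A change of 1 or more in log2 ratio was seen for 103 genes that fell and 20 that rose. Every tested gene with a change of that size passed the adjusted threshold, which follows from the deposited standard errors, none above 0.314, and the score of 3.13 that sufficed for a call. Changes of at least 1.5 were confined to 8 genes that fell and 4 that rose. The remaining falls divided into 95 genes under 0.75 in size, 139 from 0.75 to 1 and 95 from 1 to 1.5, and the remaining rises into 45, 47 and 16 genes.

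**Figure D1:**
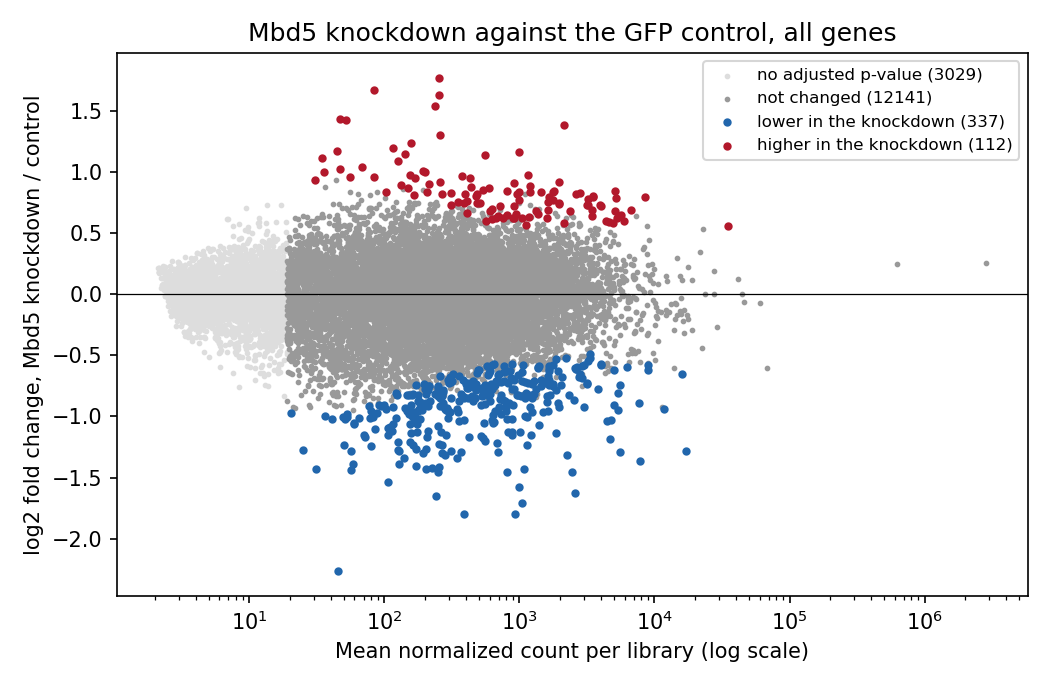
Each point is one of 15619 genes, with its mean normalized count per library on a log axis and its log2 ratio, Mbd5 knockdown over control, on the vertical axis. The 337 genes that fell (blue) outnumber the 112 that rose (red), and genes without an adjusted p (pale grey) lie at the lowest means.

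The log2 ratios of the tested genes were centred near 0. Division by size factors tends to place them there, so a shift common to most genes could not be seen. The median log2 ratio of the 12590 tested genes was 0.0038 in the authors' deposited table, and the middle 50% of them lay between -0.21 and 0.19. The preponderance of falls belonged to the genes with the smallest p-values. Of the 362 genes with an unadjusted p under 0.001 in the authors' deposited table, 77.6% were lower in the knockdown. The share was 67.1% of 508 genes between 0.001 and 0.01, 58.9% of 1042 genes between 0.01 and 0.05, and 52.9% of 855 genes between 0.05 and 0.1. In the bands above 0.1 fewer than 50% of the genes were lower, with 43.9% of 2062 genes between 0.1 and 0.25, 45.6% of 2836 genes between 0.25 and 0.5, and 47.4% of 4925 genes above 0.5. The log2 ratios of the tested genes therefore had a longer tail of falls beside a slight majority of small rises. Where 0 lies depends on the size factors, and so does this majority. These shares are descriptions, since genes are not independent replicates.

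**Figure D2:**
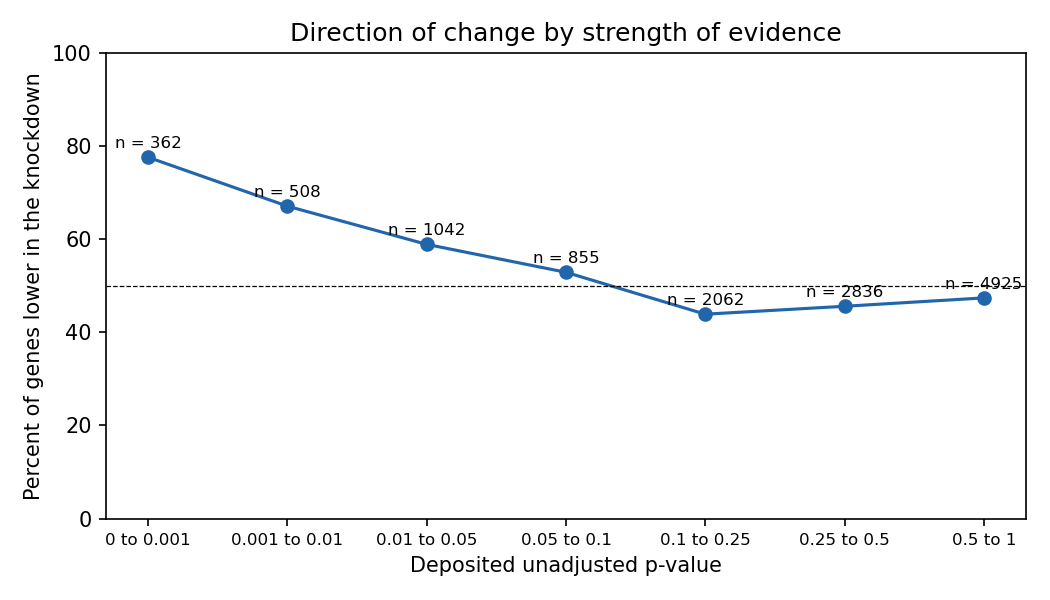
The share of tested genes that were lower in the Mbd5 knockdown (vertical axis, percent) is plotted for 7 bands of the deposited unadjusted p (horizontal axis), with the number of genes above each point and a dashed line at 50%. The share declines from 77.6% in the band of the smallest p-values to 43.9% between 0.1 and 0.25.

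Changed genes were found at all levels of expression, and falls outnumbered rises at each. The tested genes were divided into 5 classes of 2518 genes by their mean normalized count. In the lowest class, with means from 18.9 to 84.9, 25 genes fell and 11 rose. In the second class 61 fell and 13 rose, in the third 66 fell and 15 rose, and in the fourth 79 fell and 19 rose. In the highest class, with means of 881 and above, 106 genes fell and 54 rose. The share of changed genes thus went from 1.43% in the lowest class to 6.35% in the highest, and the share of falls among changed genes was 69.4%, 82.4%, 81.5%, 80.6% and 66.2% from the lowest to the highest class. The median mean normalized count was 491 for genes that fell and 781 for genes that rose, against 296 for all tested genes.

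The deposited standard errors changed along the same scale. The median standard error of a log2 ratio in the authors' deposited table was 0.31 in the lowest class, 0.26, 0.22 and 0.20 in the next classes, and 0.18 in the highest. The value of the lowest class lay near 0.314, the highest standard error of any gene in this comparison. The deposited errors may therefore not follow the precision of the measurement at low means, which was not tested. The least significant changed gene had a score, the fold change divided by its standard error, of 3.13 in size. A gene of median precision therefore needed a log2 change of 0.96 in the lowest class to be called, and of 0.56 in the highest. Single genes with smaller errors were called at smaller changes, down to 0.91 in the lowest class and 0.49 in the highest. The class differences in the share of changed genes cannot be told apart from these differences in precision.

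**Figure D3:**
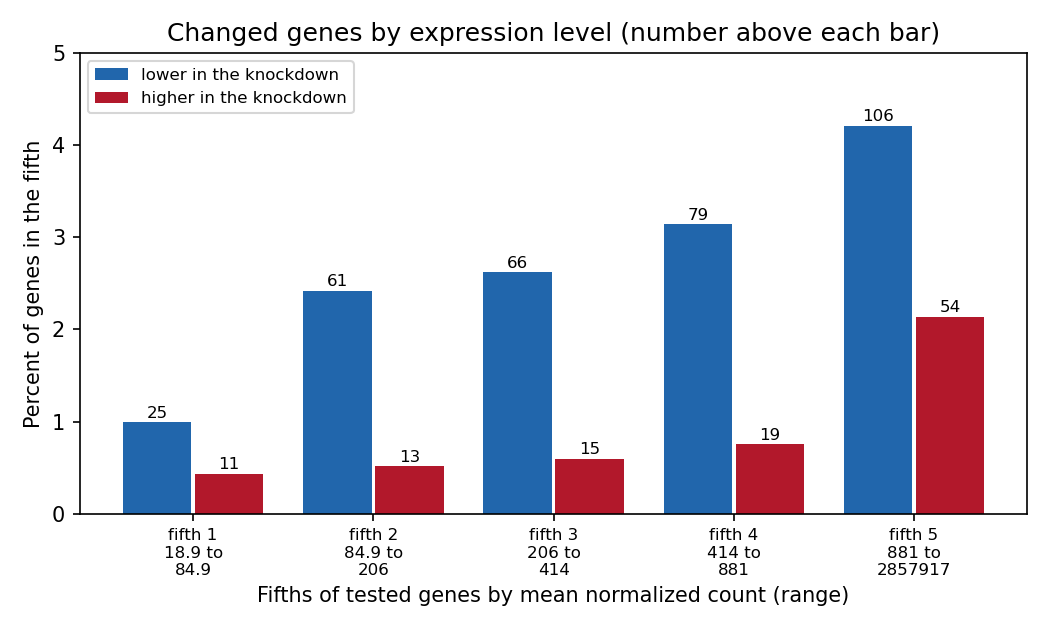
Bars give the percent of tested genes in each of 5 classes of mean normalized count (2518 genes each, range under the bar) that were lower (blue) or higher (red) in the Mbd5 knockdown, with the number of genes above each bar. Falls outnumber rises in every class, by 25 to 11 in the lowest and by 106 to 54 in the highest.

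Genes that changed held a small part of the gene counts and were also a small part of the tested genes. Of the tested genes, 2.68% fell and 0.890% rose. With equal contributions of both groups to the means, the 337 genes that fell made up 3.94% of all gene counts in the control and 2.11% in the knockdown. The 112 genes that rose made up 1.23% in the control and 1.94% in the knockdown. Among the 100 genes with the highest means, all at or above 7187 normalized counts, 9 were changed, 7 of them lower and 2 higher. Of all tested genes 3.57% were changed, and 6.35% of the highest of the 5 classes, where standard errors were smallest. The 7 falls lay between -1.36 and -0.58 on the log2 scale in the authors' deposited table, and the 2 rises were 0.55 and 0.79. At the other end, 217 genes were listed in the Mbd5 table and in no other table of the study. Their means ran from 2.13 to 6.82, with a median of 2.98, and 0 of them carried an adjusted p.

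Values are given for 4 genes, 2 in each direction. They are those with the largest change among changed genes whose mean count reached the median of tested genes and, of the others, those with the smallest adjusted p. Levels of the control and the knockdown are those that the mean and the fold change imply if both groups contribute equally. The tables were normalized separately, so a level is read within its own comparison. The implied level of the shared control also differed between comparisons by unequal factors for different genes. For ENSRNOG00000015514 it was 3077 in the Ehmt1 comparison and 3660 in that of Smarcb1, and for ENSRNOG00000005116 it was 939 and 1411. Implied levels are therefore approximate, and the source of these differences was not tested. The 4 comparisons share the control, and their values for a gene are not independent of each other.

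ENSRNOG00000020577 had the largest fall of this kind. Its implied level was 1438 normalized counts in the control and 413 in the Mbd5 knockdown. The log2 ratio in the authors' deposited table was -1.80 (SE 0.19), with an adjusted p of 8.00e-17 from the authors' DESeq2 table, the second smallest among such falls. The knockdown kept 28.7% of the control level. In the other comparisons the authors' deposited tables gave -0.81 (SE 0.24, adjusted p 0.0118) for Smarcb1, -1.11 (SE 0.30, adjusted p 0.00425) for Mll3, and 0.33 (SE 0.18, adjusted p 0.515) for Ehmt1. The gene passed the threshold as lower in all these knockdowns except that of Ehmt1.

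ENSRNOG00000015514 had the smallest adjusted p of the whole Mbd5 comparison, 2.00e-20 in the authors' deposited table. Its implied level fell from 3881 normalized counts in the control to 1259 in the Mbd5 knockdown, which is a log2 ratio of -1.62 (SE 0.16) in the authors' deposited table. The authors' deposited tables gave -0.49 (SE 0.16, adjusted p 0.0259) for Smarcb1, -1.16 (SE 0.23, adjusted p 2.18e-05) for Mll3 and -0.19 (SE 0.15, adjusted p 0.798) for Ehmt1. Both of these genes were chosen by their Mbd5 values, and a difference between knockdowns was not tested.

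ENSRNOG00000005116 had the largest rise of this kind and also the smallest adjusted p among such rises. Its implied level was 1193 normalized counts in the control and 3109 in the Mbd5 knockdown. The log2 ratio in the authors' deposited table was 1.38 (SE 0.26), with an adjusted p of 3.27e-05. The authors' deposited tables gave 1.04 (SE 0.44, adjusted p 0.121) for Smarcb1, 1.0 (SE 0.38, adjusted p 0.0750) for Mll3 and 0.19 (SE 0.26, adjusted p 0.930) for Ehmt1. The gene was chosen by its Mbd5 value, its log2 ratios for Smarcb1 and Mll3 had larger errors, and a difference between knockdowns was not tested.

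ENSRNOG00000060366 was second among such rises by size and by adjusted p. Its implied level was 618 normalized counts in the control and 1382 in the Mbd5 knockdown, a log2 ratio of 1.16 (SE 0.25, adjusted p 0.00038) in the authors' deposited table. The authors' deposited tables gave 0.87 (SE 0.32, adjusted p 0.0551) for Smarcb1, 0.72 (SE 0.35, adjusted p 0.226) for Mll3 and -0.32 (SE 0.24, adjusted p 0.770) for Ehmt1. The standard errors of both rises were larger than those of both falls in the Mbd5 table, 0.25 and 0.26 against 0.16 and 0.19.

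**Figure D4:**
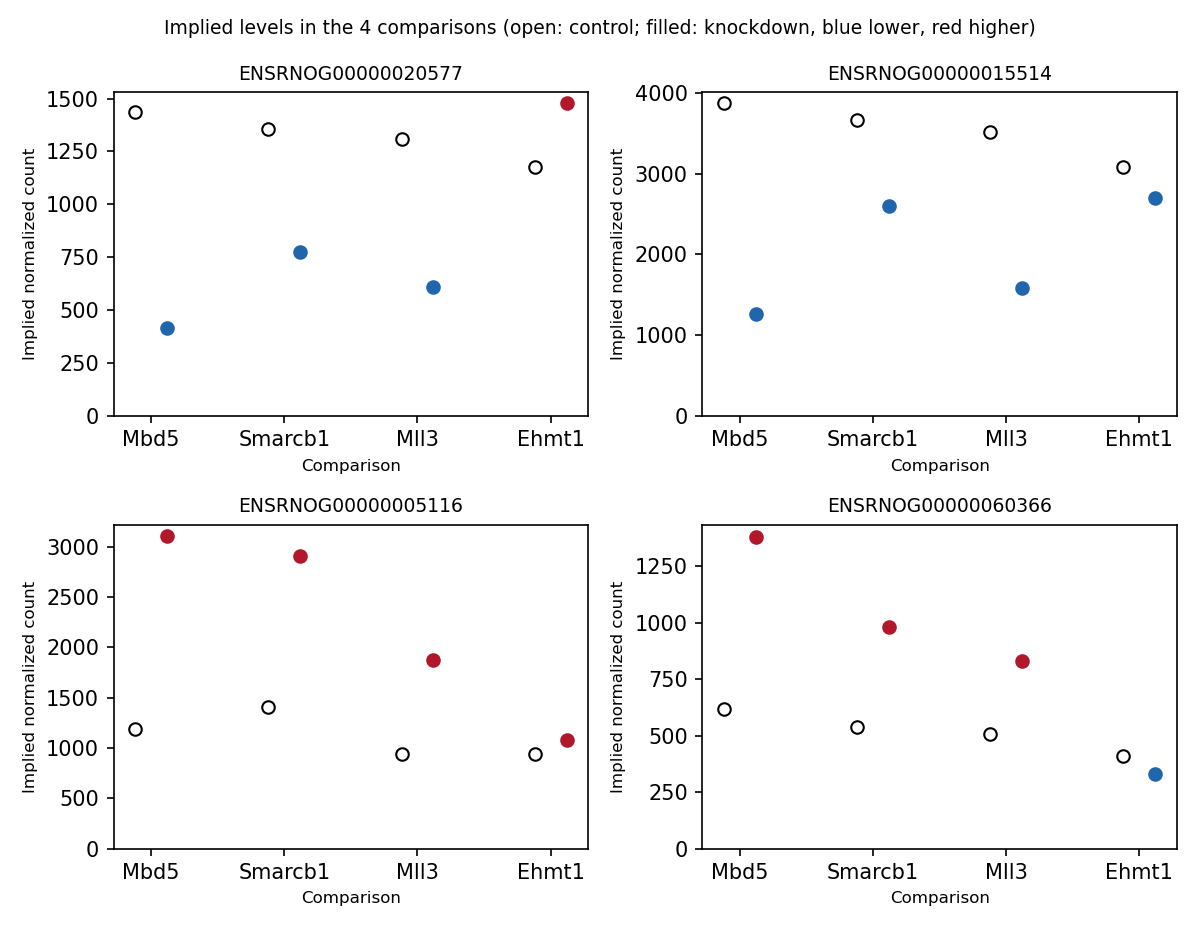
Implied normalized counts (vertical axes, from 0) of 4 genes are plotted for the 4 comparisons (horizontal axes), with the control as open circles and the knockdown as filled circles, blue where lower and red where higher; no error bar is drawn because no library values are given. In the Mbd5 comparison ENSRNOG00000020577 goes from 1438 to 413 and ENSRNOG00000005116 from 1193 to 3109.

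The genes changed with Mbd5 knockdown were then read in the other tables, all of which list every one of the 449, as they do all 12590 tested genes. These genes were chosen by their Mbd5 values, and random error in the common control enters every comparison with the same sign, so the values are given side by side and nothing is tested between tables. The 337 genes that fell had a median log2 ratio in the authors' deposited tables of -0.87 for Mbd5, -0.81 for Smarcb1, -0.76 for Mll3 and 0.04 for Ehmt1. Their spread also differed. The call that chose these genes narrows the Mbd5 values. The median standard error of these genes was 0.22 for Mbd5, 0.25 for Smarcb1, 0.32 for Mll3 and 0.21 for Ehmt1. The highest standard error of any gene was 0.314 for Mbd5, 0.446 for Smarcb1, 0.561 for Mll3 and 0.289 for Ehmt1. How far these differences account for the spread was not tested. The quartiles of the falling genes were -1.03 and -0.74 for Mbd5 and -1.35 and -0.21 for Smarcb1. They were -1.54 and 0.02 for Mll3, and -0.22 and 0.28 for Ehmt1. Over all 12590 tested genes the quartiles were -0.21 and 0.19 for Mbd5 and -0.27 and 0.25 for Smarcb1. Over the same 12590 genes they were -0.30 and 0.28 for Mll3, and -0.18 and 0.14 for Ehmt1. The lowest value of the falling genes was -4.76 for Smarcb1 and -5.10 for Mll3 against -2.26 for Mbd5. Each was also the lowest of all 12590 tested genes. Genes that fell with Mbd5 knockdown also had values above 0 in the other tables, up to 1.02 for Smarcb1, 1.21 for Mll3 and 1.52 for Ehmt1. For Ehmt1 the median of these genes, 0.04, itself lay above 0, and for Mll3 their upper quartile, 0.02, did.

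The 112 genes that rose had a median log2 ratio in the authors' deposited tables of 0.80 for Mbd5, 0.50 for Smarcb1, 0.43 for Mll3 and -0.15 for Ehmt1. The quartiles of these genes were 0.26 and 0.69 for Smarcb1, 0.15 and 0.61 for Mll3, and -0.32 and 0.03 for Ehmt1. Over all 12590 genes tested in the Mbd5 comparison the medians in the authors' deposited tables were 0.02 for Smarcb1, 0.03 for Mll3 and -0.03 for Ehmt1. The median standard error of the rising genes was 0.22 for Mbd5, 0.25 for Smarcb1, 0.30 for Mll3 and 0.22 for Ehmt1.

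**Figure D5:**
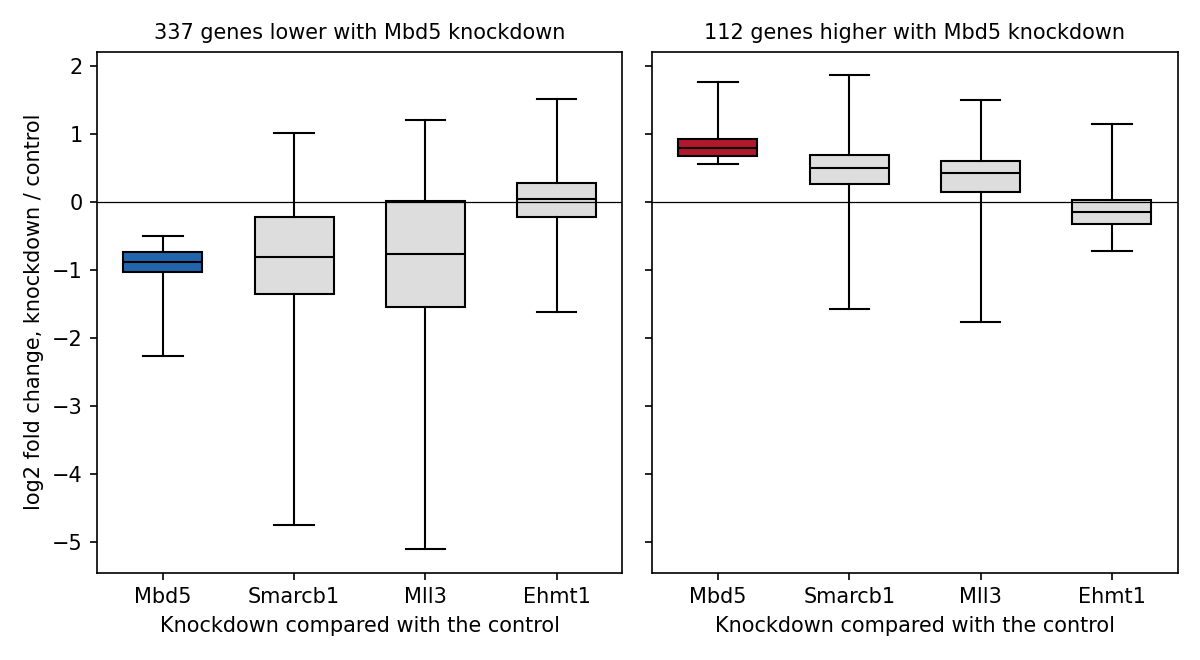
Boxes give the log2 ratio, knockdown over control (vertical axis), of the 337 genes that fell (left) and the 112 that rose (right) with Mbd5 knockdown, in each of the 4 comparisons; lines in boxes are medians, boxes the quartiles and whiskers the lowest and highest gene. Genes were chosen in the Mbd5 comparison (coloured), all comparisons share the control, and the medians for the falling genes are -0.87, -0.81, -0.76 and 0.04 for Mbd5, Smarcb1, Mll3 and Ehmt1.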

How the data were processed

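Rat cortical neurons of 5 groups gave sequencing libraries from 500 ng of RNA each, with paired reads from a NextSeq500 instrument, per the labels' protocols. STAR 2.5.2b, DESeq2 and the build Rnor_6.0 are listed in the submitters' processing notes; the annotation, the DESeq2 version and the counting settings are not given in the sources used here. The authors deposited 4 tables of their own comparisons, with no value of a single library. Per the file headers, each row holds a mean of normalized counts (a signal averaged over the libraries), a log2 fold change and its standard error, a score, a p-value and an adjusted p-value. In every row the deposited score equalled the fold change divided by its standard error, the deposited p-value followed from this score by the normal distribution (two-sided), and the adjusted one was a Benjamini-Hochberg value computed with the 4 non-gene rows included (tolerance 1e-06). In the Mbd5 table genes with a mean normalized count under 18.9 carry none. No standard error in it exceeded 0.314, even at the lowest means. A prior on fold changes would give such a ceiling and would understate changes of rare transcripts; no header states one.

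A gene was called changed at a deposited adjusted p-value under 0.05, with no refit. The direction was chosen among 16 readings of the 4 signs as the one with the smallest SD between tables of the implied control level (0.0305; next 0.1596), assuming that the control contributes 0.5 of each mean. The reading and the adjustment were tested on simulated counts with a shared control, where the reading recovered the sign of every table. The simulated tables shared a scale and gave both groups equal numbers of libraries, so the assumed share of 0.5 was not checked. Python 3.11.15, numpy 2.4.6, pandas 2.3.3 and scipy 1.17.1 were used. Depth per library is unknown, and precision is the deposited standard error. Up to 2 identifiers per direction were named, by the rule given with them, which was chosen after the tables were seen because the planned rule needed symbols. The comparison and all choices were made with earlier results of these data known. Planned gene lists, cell type markers, promoter sequences and the targeted gene were not used here, because the identifiers were not paired with symbols.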

Additional observations from a re-analysis of the deposited data

Results flagged for a closer look

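Reads that were not assigned to a single gene have 4 rows of their own in the Mbd5 table. Unmapped reads took 25.01% of the normalized total, mapped reads without an annotated feature 15.38%, reads mapping to several places 5.41%, and ambiguous reads overlapping several genes 0.74%. Besides the unmapped reads described above, the authors' deposited table gave a log2 ratio, knockdown over control, of -0.15 (SE 0.21, adjusted p 0.810) for reads without a feature, 0.11 (SE 0.15, adjusted p 0.817) for reads mapping to several places and 0.10 (SE 0.16, adjusted p 0.840) for ambiguous reads.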

How the results depend on the processing

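The number of changed genes, 449, moved with the call rule: 220 at an adjusted p-value under 0.01, 689 under 0.1, 123 for changes of 1 or more in log2 ratio, and 293 at or above the median mean count, where fewer genes are tested. The share of lower genes, 75.1%, was 82.3% under 0.01, 73.3% under 0.1, 83.7% with a change of at least 1 and 72.4% at or above the median mean count. With no filter on low means 389 genes were changed (77.1% lower), all of them among the 449. Leaving the non-gene rows out of the adjustment gave the same 449 genes, and centring on the median gave 450, of which 447 were the same genes. Reading positive as higher in the knockdown turns every direction round by construction: 24.9% would be lower, and the log2 ratios would be 1.80 for ENSRNOG00000020577, 1.62 for ENSRNOG00000015514, -1.38 for ENSRNOG00000005116 and -1.16 for ENSRNOG00000060366. The 28 other values of these 4 genes under the alternatives kept their direction and call. The rule that named these genes largely fixed this, since it took called genes with the largest changes or the smallest adjusted p. No library could be left out, since the tables hold none singly. The alternatives planned for gene lists and for the Mbd5 transcript were not run, for want of symbols.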
